A study of Drosophila melanogaster with 4 samples.

Results

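In the heads of Drosophila melanogaster, transcripts were followed for 4 genes that sit on the route from a hormone to the glycogen store: Gbs-76A and Gbs-70E, which encode glycogen-binding regulatory subunits of protein phosphatase 1, PhKgamma, which encodes the catalytic subunit of glycogen phosphorylase kinase, and AkhR, which encodes the receptor of adipokinetic hormone (AKH). The genes were picked by their current symbol. They were chosen from the values given below, the log2 ratios of the control arrays, with those values already known. The ratios are thus a description with no test, and they do not give the amount of a transcript. All 4 genes had clones on the array, 6 clones in total among 4208 clones, and 4 genes among 2406, with a value on at least 3 arrays. Gbs-76A and AkhR each had 1 clone, while Gbs-70E and PhKgamma each had 2.

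The arrays were NF-NF controls, where NF stands for normal food. On each, RNA from a pool of heads labelled with Cy5 was set against RNA from a second pool labelled with Cy3, and both pools came from unmated, untreated Oregon-R males, wild type and kept 3 to 4 days after collection. There was 1 group of 4 replicates, so no genotype, drug or diet separated the pools, and no single fly was measured, since each RNA sample pooled many heads. Both pools had spent 12 h in the treatment vessel, apart from the Cy3 pool of replicate 1, for which the labels give 6 h.

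Glycogen is made by glycogen synthase and broken down by glycogen phosphorylase, and both enzymes are switched by phosphate groups. Phosphorylase kinase adds phosphate to the phosphorylase and turns it on. Protein phosphatase 1 removes phosphate from both enzymes, which favours synthesis, and glycogen-binding subunits bring it to the glycogen particle. AKH, the insect counterpart of glucagon, is released by the corpora cardiaca and acts through AkhR, mainly in fat body, where it raises cyclic AMP and calcium and mobilises glycogen and fat. A fly head holds fat body, brain, glia, eyes and muscle, and a whole-head pool does not tell fewer cells of a type from less RNA per cell.

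Values are log2 ratios of the Cy5 pool over the Cy3 pool, minus the median of the array over clones measured on at least 3 arrays, so that 0 marks the middle clone of an array and -1 a halving against it. Those medians were 0.14, 0.00, 0.08 and -0.70 on replicates 1 to 4. Replicate 4 stood apart, with 2240 spots carrying a value against 7966 to 8429 on the others. Over clones, replicates 1 and 3 correlated with r = 0.714, replicate 2 with r = 0.43, 0.355 and 0.352 with replicates 1, 3 and 4, and replicate 4 with r = -0.014 and 0.013 with replicates 1 and 3. The study's methods speak of dye-swapped slides without naming them, whereas the labels give the same orientation on all 4 arrays. A sign below therefore holds only for the pools as labelled. With that orientation, a difference between pools cannot be told apart from one between dyes, which was not tested. The median SD of a clone over its arrays was 0.17. Every pair of duplicate spots of the members had both spots or none, and 38 of 48 possible spot values were present.

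Gbs-76A stood lowest of the members, at a mean of -0.77 ± 0.47 (SD, n = 4), that is 0.588 times the ratio of the middle clone. Its values were -1.30, -0.62, -0.94 and -0.20 on replicates 1 to 4. Its ratio was thus below the array median on all 4 arrays. It was far below on replicates 1 to 3 and close to the other clones on replicate 4. In linear terms the ratios were 0.405, 0.650, 0.522 and 0.868 relative to the middle clone. Before the array medians were subtracted, the values were -1.16, -0.62, -0.86 and -0.90, a mean of -0.89 ± 0.22 (SD, n = 4). The deposited value on replicate 4 was thus also low, on an array whose median was -0.70. The duplicate spots of Gbs-76A never differed by more than 0.11, against a median gap of 0.102 to 0.126 between duplicates of all clones on the 4 arrays.

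Among all clones of an array, Gbs-76A ranked 12th from the lowest of 4215 on replicate 1, 33rd of 4207 on replicate 2 and 40th of 3988 on replicate 3. It ranked only 272nd of 1120 on replicate 4, at percentile 24.2. By its mean it was 14th from the lowest of 4208 clones, and second from the lowest of the 726 clones with a value on all 4 arrays. These ranks by the mean hold only for the signs as deposited, since with the signs of replicates 2 and 3 turned the mean was 0.01, with 3 and 4 turned -0.20 and with 2 and 4 turned -0.35. Of 3976 clones measured on replicates 1 to 3, 68 others lay at or below Gbs-76A on at least 1 of those arrays, and 0 did so on all 3. Those cut-offs are the values of Gbs-76A, which was chosen from them, so the counts are only described. Over replicates 1 to 3 alone the mean of Gbs-76A was -0.95 ± 0.34 (SD, n = 3). Over replicates 2 to 4, whose pools had equal times in the vessel, it was -0.59.

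**Figure D1:**
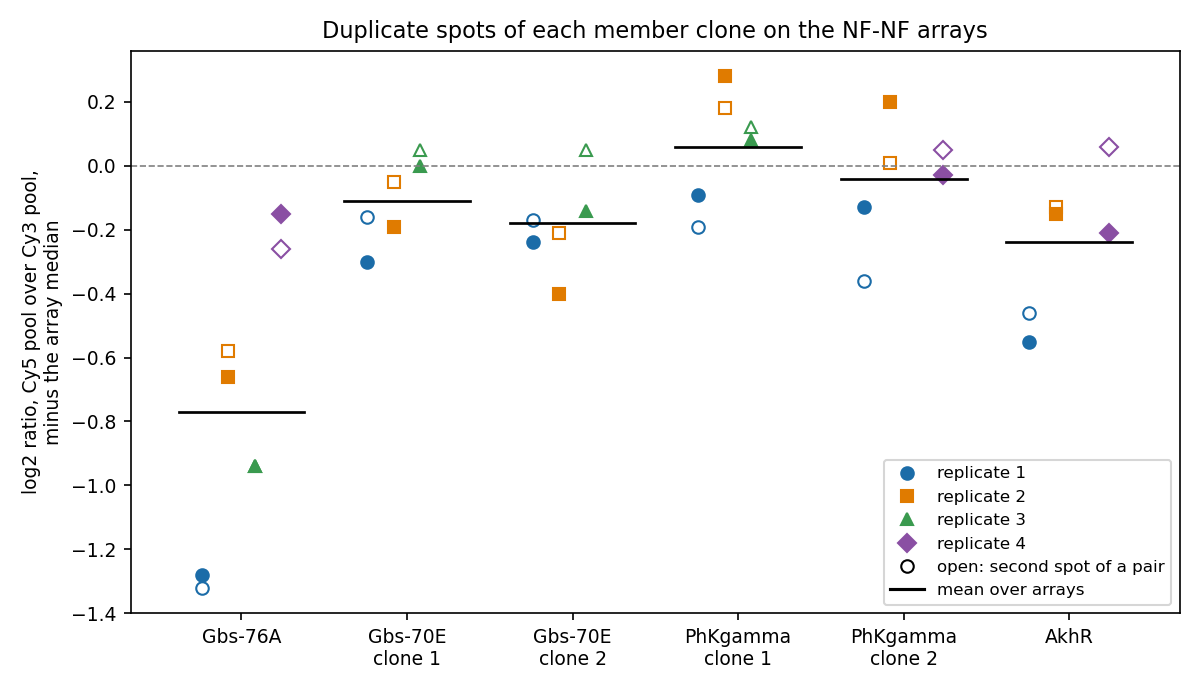
Log2 ratio of the Cy5 over the Cy3 pool minus the array median (vertical axis) for both duplicate spots of the 6 member clones, coloured by replicate, with the mean over arrays as a line. The spots of Gbs-76A lie between -1.32 and -0.15, and on replicates 1 to 3 they are lower than any spot of the other 5 clones.

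Gbs-70E, the other glycogen-binding subunit, lay close to the array medians. Its first clone was at -0.23, -0.12 and 0.03 on replicates 1 to 3, and its second clone at -0.20, -0.30 and -0.05, with no value for either on replicate 4. The clones differed by 0.08 ± 0.10 (SD, n = 3 arrays), less than the median gap of 0.20 between the means of 2 clones over the 135 genes that had such a pair. Averaged, the gene was at -0.22, -0.21 and -0.01, a mean of -0.15 ± 0.12 (SD, n = 3). On replicate 3, where Gbs-76A was at -0.94, both clones of Gbs-70E were near the middle, at percentiles 52.7 and 45.3.

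PhKgamma had no common direction. Its first clone was at -0.14, 0.23 and 0.10 on replicates 1 to 3, and its second at -0.24, 0.10 and 0.01 on replicates 1, 2 and 4. On the 2 arrays that measured both, the first exceeded the second by 0.11 and 0.12. The gene had values of -0.19, 0.16, 0.10 and 0.01 on replicates 1 to 4, a mean of 0.02 ± 0.15 (SD, n = 4), or -0.10 ± 0.41 before the array medians were subtracted. It was below the median on replicate 1 and above it on the others.

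AkhR, a G protein-coupled receptor of the plasma membrane, was at -0.51, -0.14 and -0.07 on replicates 1, 2 and 4, with no value on replicate 3. Its mean was -0.24 ± 0.23 (SD, n = 3). The value on replicate 1, at percentile 9.02 of that array, carried most of it, and without replicate 1 the mean was -0.11. That array was the one whose pools differed in vessel time (12 h in Cy5, 6 h in Cy3). All 6 member clones were below its median, against 51.5% of all genes. The members were chosen from these values, so nothing is read from that count. The part of the vessel time in these values was not tested. On replicate 4 the duplicate spots of AkhR were 0.28 apart, the widest gap of any member clone, so its sign there is not resolved.

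**Figure D2:**
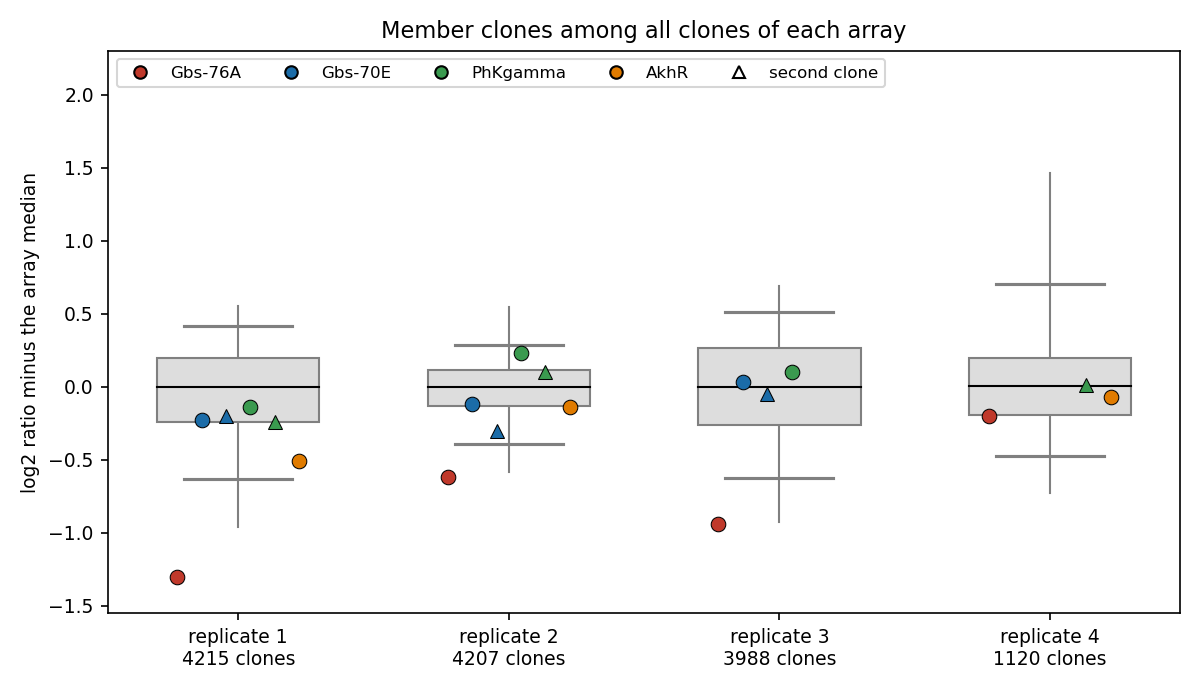
Member clones (coloured points) within all clones of each array, as the log2 ratio minus the array median. Boxes span the interquartile range of all clones with a value on that array and the short bars leave out 5% of clones at each end, the vertical lines 1%. Gbs-76A lies below the lines on replicates 1, 2 and 3 and at the lower edge of the box on replicate 4, at -0.20.

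The next comparison was of the members with each other on the same array, where the array median cancels. Gbs-76A minus Gbs-70E was -1.09, -0.41 and -0.93 on replicates 1 to 3, a mean of -0.81 ± 0.35 (SD, n = 3). The Cy5 over Cy3 ratio of Gbs-76A was thus 1.75-fold lower than that of Gbs-70E. Such differences compare ratios between pools, not the amounts of the transcripts. The mean difference between these glycogen-binding subunits was larger than its SD for the signs as deposited. With the signs of replicates 2 and 3 turned it was 0.08 ± 1.05, and with 3 and 4 turned -0.19 ± 1.03. Here and below, a difference set against its SD is only described, since the members were chosen from these values. Gbs-76A was lower than PhKgamma on 4 of 4 arrays, with a mean difference of -0.79 ± 0.41 and a range from -1.11 to -0.21. It was also lower than AkhR on 3 of 3 arrays, with a mean difference of -0.47 ± 0.33, or -0.30 without replicate 1. The differences on replicate 4, at -0.21 to PhKgamma and -0.13 to AkhR, were the smallest of each pair.

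The other 3 members were closer together on this scale. Gbs-70E minus PhKgamma was -0.17 ± 0.18 (SD, n = 3), within the spread between arrays, but -0.59 ± 0.19 with the median of neighbouring spots subtracted, beyond it. Gbs-70E minus AkhR was 0.29 on replicate 1 and -0.07 on replicate 2, without 1 sign. PhKgamma minus AkhR was 0.32, 0.31 and 0.08 on replicates 1, 2 and 4, with PhKgamma the higher on 3 of 3 arrays. In order of their means, PhKgamma was followed by Gbs-70E, AkhR and Gbs-76A, and of the neighbours in that order AkhR and Gbs-76A differed by more than the SD of their difference, while the other neighbours did not. Against neighbouring spots the order was PhKgamma, AkhR, Gbs-70E and Gbs-76A.

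**Figure D3:**
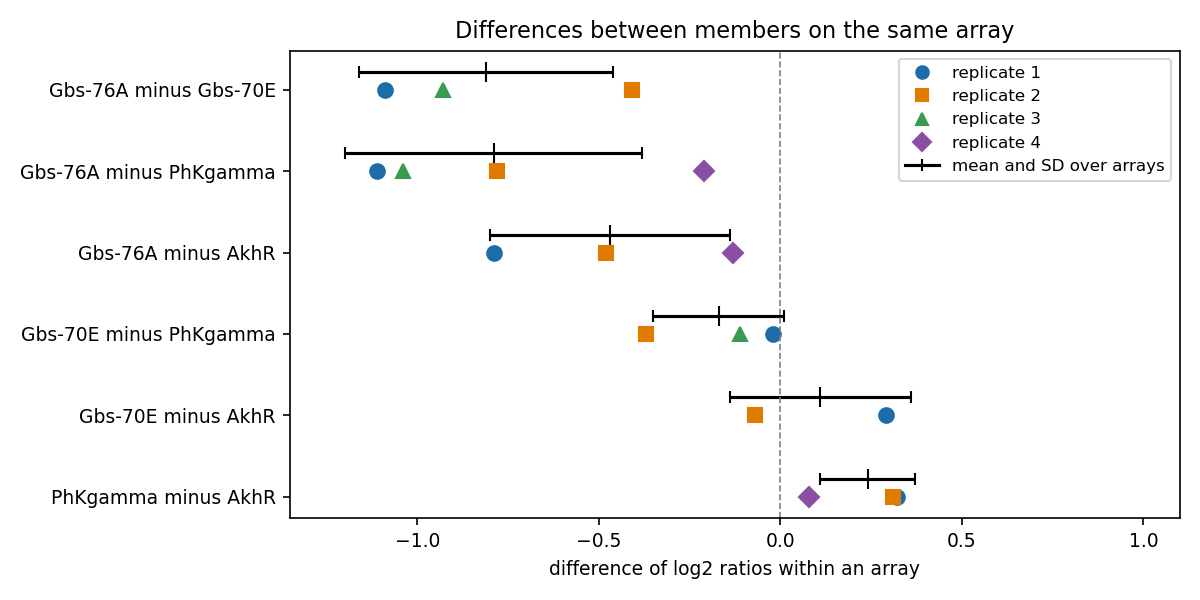
Differences of log2 ratios between members on the same array (points, by replicate), with the mean and SD over arrays as bars. The 3 differences that involve Gbs-76A lie left of 0 on every array, while those between Gbs-70E, PhKgamma and AkhR lie between -0.37 and 0.32.

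As background for these values, the log2 ratio of every clone was tested against 0 with limma. It called 0 of 6 member clones and 0 of 4208 clones (0%) at an adjusted p of 0.05, while 1272 clones (30.2%) had an unadjusted p under 0.05. The lowest adjusted p of that limma fit was 0.0545, close to the threshold, so the 0 is no sign that the pools or dyes were alike. One-class SAM, run over the 16 ways of signing the arrays, listed 43 higher and 203 lower clones at a false discovery rate of 5%. It listed 0 member clones. The study's own SAM of its control arrays detected no differentially expressed gene at such a rate or at far higher ones. The runs differ, as array medians were subtracted here and the study used its own set of analyzable genes. How the signs of its dye-swapped slides entered its run is not known here. In limma, turning the signs of replicates 2 and 3, 2 and 4, or 3 and 4 left 12, 204 and 17 clones with an unadjusted p under 0.05. Without replicate 4, limma called 379 of 3976 clones (9.53%), and Gbs-76A was the 1 of 4 member clones tested there that it called. As the members were picked on the same values, nothing is read from these calls. The clones below the array median on every measured array were 3 of 6 members, namely Gbs-76A, AkhR and the second clone of Gbs-70E, and 25.1% of all clones. For AkhR on replicate 4 (-0.21 and 0.06) and that Gbs-70E clone on replicate 3 (-0.14 and 0.05), the duplicate spots lay on either side of the median. Above it on every measured array were 0 of 6 members and 25.3% of all clones.

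Position in the table moved some values. Against the 49 nearest measured spots in table order, Gbs-76A was at -1.16, -0.53, -0.82 and -0.20, a mean of -0.68 ± 0.41 (SD, n = 4). The surroundings of both Gbs-70E clones were high, so that Gbs-70E was at -0.33 ± 0.08 on this scale, and those of the first PhKgamma clone low on replicates 1 and 3, at -0.34 and -0.39, so that PhKgamma was at 0.23 ± 0.18. AkhR was at -0.16 ± 0.16. On this scale Gbs-76A minus Gbs-70E was -0.50 ± 0.23 (SD, n = 3), no larger than Gbs-70E minus PhKgamma at -0.59 ± 0.19. PhKgamma minus AkhR was 0.30 ± 0.16 (SD, n = 3), also beyond its spread, and Gbs-70E minus AkhR was -0.09 ± 0.05 (SD, n = 2).

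Genes with values most like those of Gbs-76A were sought among 435 clones of single genes measured on all 4 arrays, by the root mean square difference over the arrays. CG7149 was nearest, with 0.163, followed by cyst with 0.201, CG14889 with 0.210, CG9426 with 0.242 and gus with 0.266. CG7149 was at -1.19, -0.81, -0.71 and -0.27 on replicates 1 to 4. Like Gbs-76A, these 5 genes had their highest value on replicate 4, between -0.49 and -0.24. They were picked on these same values, so this likeness is no separate finding. For AkhR, among 572 clones on its 3 arrays, SLC5A11 and CG32355 were nearest, with 0.041 and 0.047. For the clones of Gbs-70E and PhKgamma, on 3 arrays and among 572 to 2407 clones, the nearest genes were Ppcs, mRpS33, Ldsdh1 and lt, with 0.023 to 0.038. Distances over 3 and 4 arrays are not set against each other.

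Other genes of glycogen, AKH, lipid, trehalose, insulin, AMP-activated kinase and glycolysis lists, 64 in all, were then examined, and 19, including 7 glycolysis genes, were measured on 3 arrays or more. The rest had fewer values or no annotated spot here, and were not analysed. Of the 19, 16 had a mean below the array median and 3 above it, against 1237 of 2406 genes (51.4%) below over all genes, and the median of their means was -0.20 against -0.01. On single arrays 16 of 19 were below on replicate 1, 10 of 19 on replicate 2, 12 of 17 on replicate 3 and 4 of 9 on replicate 4. Below on every measured array were 6 of 19, or 31.6%, against 25.7% of all genes. In the limma fit 0 of the 19 passed the adjusted p in either direction, while 7 were lower and 1 higher at an unadjusted p under 0.05, which 30.2% of all clones passed. SAM listed 3 of them, Galphas and CG7766 as lower and Hex-C as higher, against 5.85% of all clones. Without replicate 4, limma called 4 of the 17 genes tested, Galphas, CG7766, Pka-R1 and bmm, against 9.53% of all clones. These 4 were lower, as were 317 of the 379 clones called in that fit. A gene counted if any of its clones passed, whereas the shares are per clone, so the units differ.

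Glys, the glycogen synthase gene, was at -0.47, 0.07 and -0.62 on replicates 1 to 3, without 1 sign. The gene flw, a catalytic subunit of protein phosphatase 1, was at -0.12, -0.19, -0.19 and 0.07 on replicates 1 to 4. Gbs-76A was lower than flw on 4 of 4 arrays, by a mean difference of -0.66 ± 0.40 (SD, n = 4), and lower than Glys on 3 of 3, by -0.61 ± 0.27. Gbs-70E minus flw was 0.02 ± 0.14 and Gbs-70E minus Glys 0.19 ± 0.45 (SD, n = 3 each). The glycogen phosphorylase gene Glyp had no value on any array.

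Down the AKH route, the stimulatory G protein subunit gene Galphas was the lowest measured gene of these lists apart from Gbs-76A, at -0.77, -0.40 and -0.60 on replicates 1 to 3, a mean of -0.59 ± 0.19 (SD, n = 3). AkhR exceeded it by 0.26 on each of the 2 arrays that measured both. Galphaq, whose protein couples receptors to calcium release, was at -0.06 ± 0.07 (SD, n = 4), and Pka-R1, a regulatory subunit of the kinase that answers cyclic AMP, at -0.32 ± 0.21 (SD, n = 4). Of the fat stores, the lipase gene bmm was at -0.39 ± 0.13 and Lsd-2, a lipid droplet protein, at -0.33 ± 0.12 (SD, n = 3 each), both below the median on 3 of 3 arrays. AkhR minus bmm was -0.04 on replicate 1 and 0.10 on replicate 2, without 1 sign.

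**Figure D4:**
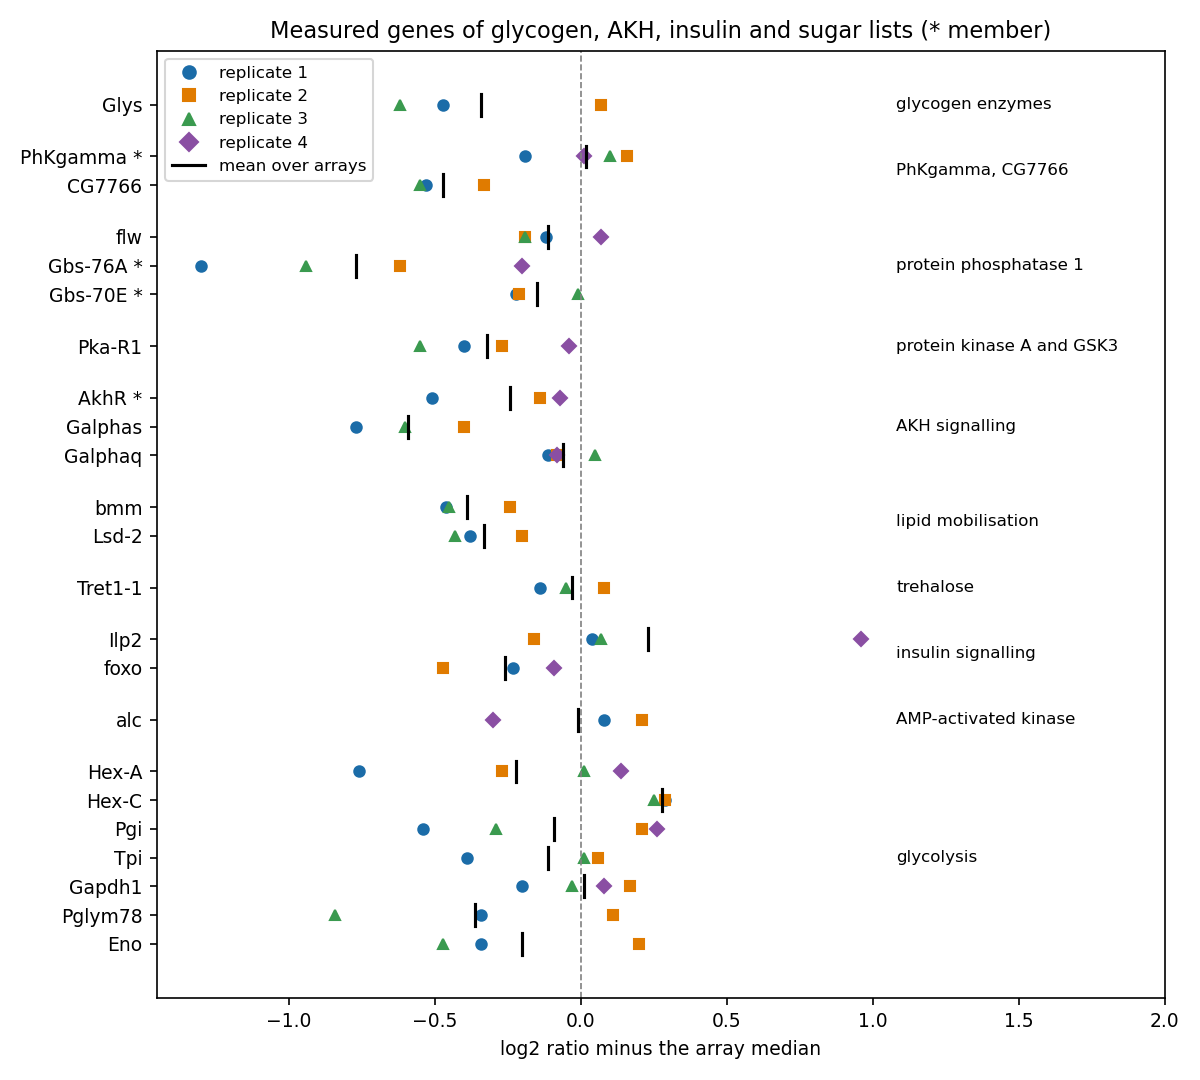
Measured genes of the glycogen, AKH, insulin and sugar lists, grouped by role, with the log2 ratio minus the array median on each array (points) and the mean (bar); asterisks mark the members. Most means lie left of 0, with Gbs-76A lowest at -0.77 and Galphas next at -0.59, and Ilp2 reaches 0.96 on replicate 4 alone.

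Insulin signalling opposes AKH. The insulin-like peptide gene Ilp2 was at 0.04, -0.16, 0.07 and 0.96 on replicates 1 to 4 and foxo, a transcription factor restrained by insulin, at -0.23, -0.47 and -0.09 on replicates 1, 2 and 4. The AMP-activated kinase subunit gene alc was at 0.08, 0.21 and -0.30 on those arrays, and the trehalose transporter gene Tret1-1 at -0.14, 0.08 and -0.05 on replicates 1 to 3. Of 7 measured glycolysis genes 2 had means above and 5 below the median, from Pglym78 at -0.36 ± 0.47 (SD, n = 3) to the hexokinase gene Hex-C at 0.28 ± 0.03 (SD, n = 3).

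A further list held the genes that were followed by real-time PCR in the drug experiments of the same work, the members among them. Of its 9 genes, 6 had values here. CG7766 was at -0.53, -0.33 and -0.55 on replicates 1 to 3, and PhKgamma exceeded it on 3 of 3 arrays, by 0.50 ± 0.16 (SD, n = 3). Cyp28d1, a cytochrome P450 gene, was at 0.02 ± 0.17 (SD, n = 4). Those genes had been picked on the drug arrays, so the list is only described.

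Markers of the cell types that a head pool holds were set beside the members. Fat body is the main site of AkhR. Of 10 fat body markers 4 were measured, Yp3 at 1.31 ± 0.72 (SD, n = 4), Yp2 at 0.52 ± 0.32, Lsp2 at 0.05 ± 0.09 (SD, n = 3 each) and apolpp at -0.07 ± 0.14 (SD, n = 4). The yolk protein genes Yp3 and Yp2 were above the median on every array that measured them, Yp3 at 1.49, 0.34, 1.31 and 2.08 on replicates 1 to 4. The highest mean of all 4208 clones was also 1.31. Both pools were labelled as male, and whether yolk protein genes report on fat body in male heads was not tested. Lsp2 and apolpp lay close to the median, so the 4 markers gave no common reading of the fat body in the pools. The part of the yolk protein genes in the values of the members was not tested. Glial Eaat2 and Gs2 were at -0.33 and -0.26 and Gli at 0.16, for 3 of 7 markers. The neuronal marker nSyb, the only 1 of 8 measured, was at 0.22, and the 3 measured photoreceptor genes of 9 lay between -0.11 and 0.24. The muscle markers Act88F and TpnC73F, measured of 8, were at -0.08 and 0.24.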

How the data were processed

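The deposited values were log2 ratios of Cy5 over Cy3 per spot, made by the authors with GenePix Pro 6.0 and ratio-based normalization in Acuity 4.0, and filtered by them for saturation, flags, regression between channels and signal over noise. Brightness was not analysed here, so precision rests on the 4 arrays. Adjacent rows, 27648 spots, were averaged into 13824 clones, and each array's median over the 4208 clones with values on at least 3 arrays was subtracted. Current gene symbols came from RefSeq, matched on Entrez identifiers (97.9% of 15218 annotated probes matched). Clones of a gene were averaged.

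Clones were tested against 0 with limma 3.58.1 in R 4.3.3 (intercept, empirical Bayes, Benjamini-Hochberg at 0.05, two-sided), a fit tested on simulated data. The simulated data held no effect shared by the clones of an array, so they do not show how the fit behaves on these arrays. One-class SAM, the test named in the methods, was an alternative. Named genes were the members, every measured gene of the pathway and marker lists, and the 5 single-gene clones nearest each member. The members and lists were chosen with earlier results of these data known. The labels give separate head pools, and p-values measure the spread between these arrays. Alternatives were leaving out each array, turning the signs of array pairs, other centring, single spots, other minimum numbers of arrays and subtracting the median of 49 neighbouring spots.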

Additional observations from a re-analysis of the deposited data

Results flagged for a closer look

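Replicate 4 had values for 2240 spots, and its median over clones was -0.70, both far from those of the other arrays. These were 2 of 12 sets of 4 values examined, which included the members, their differences and the pathway genes with 4 values. Chance sets about 1 in 20 such groups apart, and the sets share the arrays. The 4 values of Gbs-76A and of PhKgamma were not set apart in this way.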

How the results depend on the processing

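Leaving out 1 array moved the mean of Gbs-76A between -0.95 and -0.59, of Gbs-70E between -0.21 and -0.11, of PhKgamma between -0.03 and 0.09 and of AkhR between -0.32 and -0.11, and the number of clones called by limma between 0 and 379, the highest without replicate 4. No paired analysis was possible because the arrays form 1 group. Of 72 other settings for members and their differences, 55 stayed within 1 SD. The exceptions were mostly turned signs. With replicates 2 and 3 turned, Gbs-76A was at 0.01 and Gbs-70E at 0.00, and Gbs-76A minus Gbs-70E was 0.08, Gbs-76A minus PhKgamma 0.12, Gbs-70E minus PhKgamma 0.15 and PhKgamma minus AkhR 0.03, while 9 of 19 pathway genes were below 0. With 2 and 4 turned, Gbs-70E was at -0.01, and the differences were -0.29 for Gbs-76A minus PhKgamma, -0.06 for Gbs-76A minus AkhR, 0.08 for Gbs-70E minus PhKgamma and -0.03 for PhKgamma minus AkhR. With 3 and 4 turned, Gbs-76A was at -0.20, and Gbs-76A minus Gbs-70E was -0.19 and minus PhKgamma -0.16. With neighbouring spots subtracted, Gbs-70E was at -0.33, PhKgamma at 0.23 and their difference at -0.59, and limma called 2 clones. It called 1 on clones with values on 2 or more arrays, and SAM listed 246 clones at a false discovery rate of 5%. The alternatives for the pathway count were chosen after seeing the data. The cause of these shifts was not tested, apart from the turned signs, which cancel values of like sign by construction.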
